A study of Homo sapiens with 8 samples.

Results

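The 9 transcription factors described here set or maintain the identity of the intestinal epithelium: CDX1, CDX2, HNF4A, KLF4, KLF5, GATA6, ASCL2, SOX9 and ATOH1. They were chosen by name for that role, with earlier results of these data known. They were looked up in the deposited counts of RKO cells, an established human colon carcinoma cell line. All 9 were found among the 57992 genes of the files. The data cover 8 samples, 4 transfected with control siRNA and 4 with siRNA against A20, a ubiquitin-editing enzyme encoded by TNFAIP3. Every sample received recombinant human wnt3a at 50 ng/mL for 24 hours, so no sample shows these cells without wnt3a, and 1 cell line stands for colon cancer cells here. The samples are numbered 1 to 4 in each group, and the sources used here do not say whether they were separate experiments or parallel cultures. P-values therefore measure only the spread between these samples, which may be technical.

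In the intestine, CDX2 and its relative CDX1 are homeodomain factors that direct epithelial cells to an intestinal rather than a gastric fate. The nuclear receptor HNF4A and the zinc finger factor GATA6 also act in the intestinal epithelium. Among the zinc finger factors of the KLF family, KLF5 is known from dividing crypt cells and KLF4 from differentiated cells, goblet cells in particular. ASCL2 is a wnt target that marks stem cells at the crypt base, SOX9 is a wnt target of the crypt, and ATOH1 is the switch that commits progenitors to the secretory lineage, which Notch signaling restrains.

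RKO cells held transcripts of 5 of the 9 factors, CDX2, GATA6, KLF5, KLF4 and SOX9, and 4 were at or near 0. No read was counted for CDX1, HNF4A or ATOH1 in any of the 8 samples, and ASCL2 had 0 to 2 reads per sample. A gene was called present when it passed edgeR's filter on low counts (a minimum count of 10, applied to library size and group size), and 23.1% of all genes in the files, or 57.6% of the protein-coding ones, did so. The share of the lineage factors, 5 of 9, was near that of protein-coding genes. Of the 5 present factors none passed the test between A20 siRNA and control siRNA, which 1.25% of all 13412 tested genes passed after adjustment.

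The promoter sequences of present and absent factors are shown as a description only, since the share present was near that of protein-coding genes. The RefSeq windows matched 6 of the 9 factors, not CDX1, ASCL2 or SOX9. They hold the 250 bases before a transcription start, from RefSeq on GRCh38.p14, read 5′ to 3′ on the strand of the gene, with each CG dinucleotide in capitals. CDX2 (chr13:27969316-27969565, minus strand) and GATA6 (chr18:22169339-22169588, plus strand) had reads in every sample. ATOH1 (chr4:93828503-93828752, plus strand) and both starts of HNF4A, the upstream one (chr20:44355449-44355698, plus strand) and the downstream one (chr20:44400989-44401238, plus strand), had none.
CDX2: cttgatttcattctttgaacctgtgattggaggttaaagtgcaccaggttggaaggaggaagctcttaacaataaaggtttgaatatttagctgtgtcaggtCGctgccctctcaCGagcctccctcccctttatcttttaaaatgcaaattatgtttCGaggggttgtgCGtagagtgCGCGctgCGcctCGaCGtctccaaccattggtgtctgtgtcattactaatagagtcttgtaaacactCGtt
GATA6: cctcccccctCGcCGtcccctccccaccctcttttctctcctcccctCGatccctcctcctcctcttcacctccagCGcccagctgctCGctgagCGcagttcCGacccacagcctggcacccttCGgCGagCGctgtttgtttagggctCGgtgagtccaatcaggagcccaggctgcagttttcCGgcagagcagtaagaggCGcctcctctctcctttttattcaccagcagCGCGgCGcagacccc
ATOH1: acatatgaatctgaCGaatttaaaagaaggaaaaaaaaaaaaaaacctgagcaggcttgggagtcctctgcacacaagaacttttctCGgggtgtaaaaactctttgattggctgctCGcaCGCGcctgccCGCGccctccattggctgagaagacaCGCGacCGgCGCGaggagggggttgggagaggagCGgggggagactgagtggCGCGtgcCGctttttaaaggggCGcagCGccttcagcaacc
HNF4A upstream start: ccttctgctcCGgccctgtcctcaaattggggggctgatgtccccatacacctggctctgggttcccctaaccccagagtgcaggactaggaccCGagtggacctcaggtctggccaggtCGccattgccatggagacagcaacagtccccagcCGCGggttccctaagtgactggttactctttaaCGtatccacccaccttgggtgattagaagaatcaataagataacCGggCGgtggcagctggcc
HNF4A downstream start: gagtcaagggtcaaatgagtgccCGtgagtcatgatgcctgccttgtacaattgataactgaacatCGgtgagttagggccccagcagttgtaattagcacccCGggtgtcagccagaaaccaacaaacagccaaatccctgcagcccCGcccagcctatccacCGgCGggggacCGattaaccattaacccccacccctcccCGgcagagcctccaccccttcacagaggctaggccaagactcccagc
The number of CG dinucleotides did not sort these windows by the reads of their genes. It was 10 for CDX2 and 16 for GATA6, against 18 for ATOH1 and 8 for each start of HNF4A. The letters CG read the same on both strands, and the median over all 35116 windows of this length was 11. Of those windows 52.2% held at least as many as CDX2, 41.0% as many as GATA6, 36.8% as many as ATOH1 and 56.3% as many as either start of HNF4A. The other windows of present factors reached further in both directions, with 25 for KLF4 and 3 and 27 for the 2 starts of KLF5. A gene count does not tell which start a read came from. Only ATOH1 and HNF4A stand for the absent factors here, and a link between CG number and reads was not tested.

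To compare levels between genes, counts were divided by exonic length and scaled to the same total in every sample (TPM). CDX2 (ENSG00000165556.9, chromosome 13, 27960918 to 27969315, GRCh38) had the highest level of the 9. In control samples 1 to 4 it had 20.57, 20.13, 21.99 and 19.72 TPM, and in A20 siRNA samples 1 to 4 it had 21.85, 20.56, 21.79 and 19.27 TPM, from 332 to 612 reads per sample. Its mean level stood above that of 48.6% of the 13412 genes that passed the filter, near the middle of what these cells transcribe. The other CDX genes were at 0: neither CDX1 (ENSG00000113722.16, chromosome 5, 150166778 to 150184558) nor CDX4 had a read. In each sample 3 counts of CDX1 would have been 0.212 to 0.345 TPM. With CDX1 set at that limit in each library, CDX2 was at least 55.9-fold higher per exonic length, the smallest of the 8 ratios.

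GATA6 (ENSG00000141448.8, chromosome 18, 22169589 to 22202528) came second. Its levels were 7.57, 7.23, 8.79 and 6.93 TPM with control siRNA and 7.90, 8.89, 6.79 and 7.04 TPM with A20 siRNA. The groups overlapped fully, and CDX2 exceeded GATA6 in all 8 samples, by 2.31 to 3.21 times. Of the 6 GATA genes only GATA6 and GATA4 were present, and GATA1, GATA2, GATA3 and GATA5 had no read. GATA4, a relative with a role in the proximal intestine and the heart, was 2.81 to 3.83 times as high as GATA6 in the same sample, at a mean of 24.5 TPM. The genes annotated on the opposite strand of GATA6, GATA6-AS1 among them, had at most 3 reads in any sample.

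KLF5 (ENSG00000102554.13, chromosome 13, 73054976 to 73077541) and KLF4 (ENSG00000136826.14, chromosome 9, 107484852 to 107490482) followed at lower levels. KLF5 had a mean of 4.13 TPM over the 8 samples, from 3.31 to 5.07, and KLF4 a mean of 3.11, from 2.39 to 3.54. Their ranges over the 8 samples overlapped, although KLF5 was above KLF4 within every sample, by 1.12 to 1.61 times. Both were minor members of their family. Of the 17 KLF genes 12 were present, and KLF5 ranked eighth and KLF4 ninth by mean level. KLF16 and KLF10, a transcriptional repressor induced by TGF-beta, were the highest at 112.9 and 109.5 TPM, so KLF16 exceeded KLF5 by 23.3 to 33.3 times within a sample.

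SOX9 (ENSG00000125398.5, chromosome 17, 72121020 to 72126416) was the lowest of the present factors. It rested on 38, 22, 27 and 29 reads in control samples 1 to 4 and on 37, 29, 32 and 34 reads in A20 siRNA samples 1 to 4. This gave 0.943 to 1.77 TPM, above 8.81% of the genes that passed the filter. KLF4 exceeded SOX9 in every sample, by 1.64 to 3.76 times, and their ranges did not overlap. Of the 17 SOX genes looked up 7 were present and 9 had no read, and SOX9 ranked sixth. SOX12 and SOX4 led at 103.6 and 44.7 TPM, and SOX4, which also acts in intestinal progenitors, was 27.1 to 47.5 times as high as SOX9 within a sample. SOX9-AS1 on the opposite strand had no read. The other gene annotated there (ENSG00000288605) was not among the genes of the deposited counts, like ENSG00000289987 opposite KLF4.

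**Figure D1:**
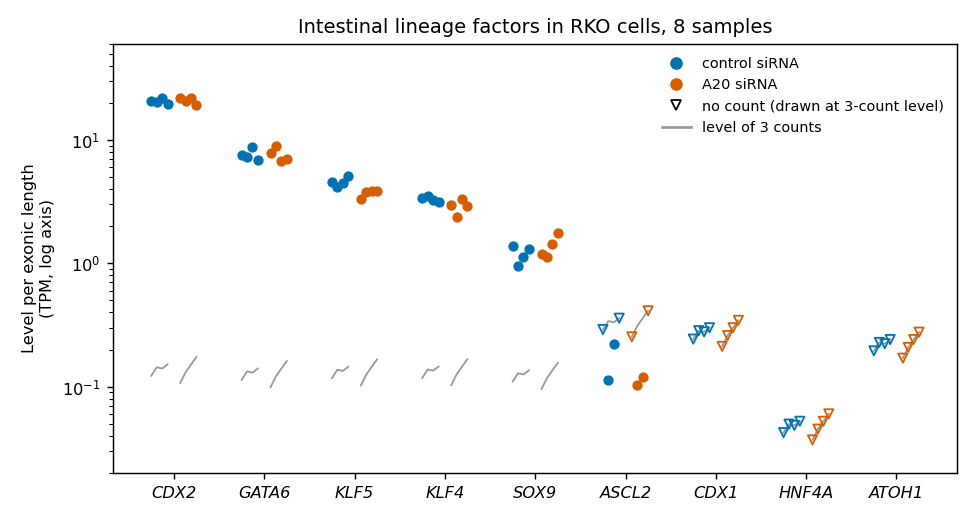
Levels of the 9 lineage factors per exonic length (TPM, log axis) in the 4 control siRNA samples (blue) and the 4 A20 siRNA samples (orange), drawn from sample 1 to 4 within each group; grey lines mark the level of 3 counts in each sample and open triangles samples without a count. CDX2 sits near 20 TPM, GATA6, KLF5, KLF4 and SOX9 follow in steps with overlap between KLF5 and KLF4, and CDX1, HNF4A and ATOH1 have triangles only.

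HNF4A (ENSG00000101076.16, chromosome 20, 44355699 to 44432845) had no read in any sample, and HNF4A-AS1 on the opposite strand had none either. Its closest relative HNF4G, which binds the same class of sites, was present with 402 to 632 reads per sample and a mean of 16.5 TPM. Against 3 counts of HNF4A per library, HNF4G was at least 284-fold higher per exonic length, a bound that leans on the long exonic length of HNF4A over all its annotated isoforms (10167 bases). HNF4G lay at 0.747 to 0.917 of the level of CDX2 in the same sample.

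ATOH1 (ENSG00000172238.4, chromosome 4, 93828753 to 93830964) also had no read in any sample, where 3 counts would have been 0.170 to 0.277 TPM. ATOH7, known from the retina, was the only present relative, at 1.17 TPM. ASCL2 (ENSG00000183734.4, chromosome 11, 2268498 to 2270588) had 0, 1, 2 and 0 reads with control siRNA and 0, 1, 1 and 0 reads with A20 siRNA. All 8 values lie at or below the limit of 3 counts, so neither its level nor a difference between the groups was detectable at this depth. None of the 5 ASCL genes passed the filter.

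**Figure D2:**
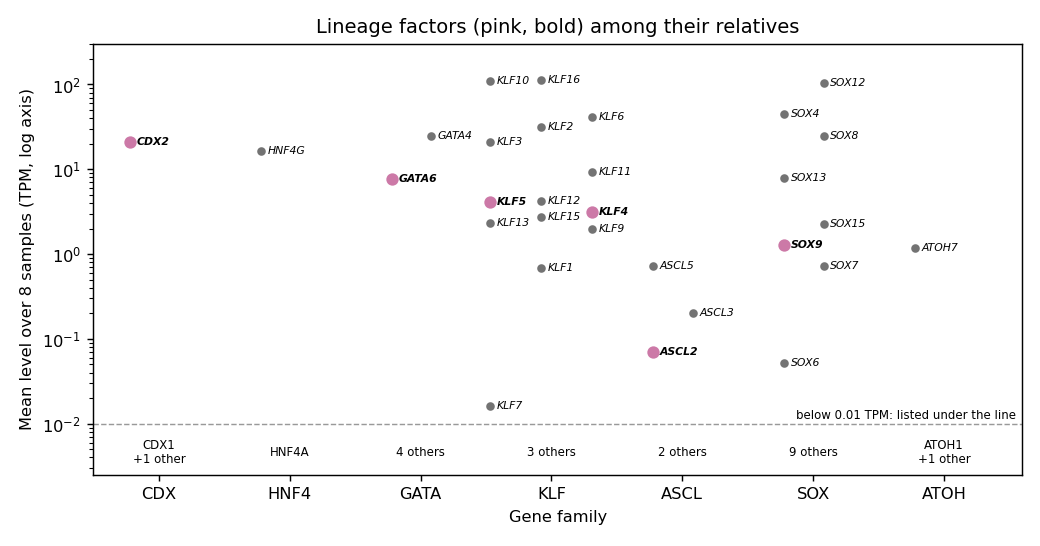
Mean level over the 8 samples (TPM, log axis) of each gene in the families of the lineage factors, with the 9 factors in pink and bold and relatives in grey; genes below 0.01 TPM are listed under the dashed line. CDX2 is the only CDX gene with reads, HNF4G stands at 16.5 TPM where HNF4A has none, GATA4 lies above GATA6, and KLF5, KLF4 and SOX9 lie below KLF16, KLF10 and SOX12 of their families.

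Other regulators of intestinal lineages were also partly present. Of 30 listed, 13 were present, 2 had more than 3 reads in some sample without passing the filter, and 15 had 3 reads or fewer in every sample, 7 of them none. SOX4, HES4, GATA4 and TCF7L2 had the highest levels, at 44.7, 34.6, 24.5 and 22.8 TPM. TCF7L2 is the main partner of beta-catenin in the intestinal crypt. FOXA1, a pioneer factor of endodermal tissues, had 10.8 TPM. Among factors that act downstream of ATOH1, GFI1, which acts in secretory cells, had 5.22 TPM, whereas SPDEF, needed for goblet cells, had 1 read in 1 sample and NEUROG3, needed for endocrine cells, had none. HES1, the Notch effector that represses ATOH1, had 5.33 TPM. ELF3, an epithelial ETS factor, had 1 read in 1 sample, and EHF, of the same family, had none.

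Few products of differentiated intestinal cells passed the filter. Of 33 products of absorptive or general intestinal epithelium 1 was present, the carbonic anhydrase CA2, at 52.8 TPM. Of the others 7 had more than 3 reads in some sample without passing, and 25 had 3 reads or fewer in every sample, 13 of them none, among them the sucrase SI and the keratin KRT20. The cadherin CDH17 and the antigen GPA33 had 1 read each over all samples and the microvillus protein VIL1 had 2. CDX2 stood near 20 TPM in the same samples, and a link between it and these genes was not tested. The guanylate cyclase GUCY2C and the microvillus cadherin CDHR2, with 3 to 7 and 3 to 10 reads per sample, were the highest of the 7. Of 28 products of secretory cells 3 were present, the Notch ligands DLL1 and DLL4 and the serotonin enzyme TPH1, at 4.16, 1.52 and 0.279 TPM, and 20 had no read, among them the goblet cell genes MUC2 and TFF3 and the endocrine gene CHGA.

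Of 16 crypt base and progenitor genes 10 were present, led by MKI67, CD44, RGMB and MSI1 at 264.8, 122.0, 120.8 and 104.9 TPM. The other 6, LGR5, OLFM4, SMOC2, PROM1, TNFRSF19 and PTPRO, had no read in any sample. LGR5 and OLFM4 are stem cell markers of the crypt base, where ASCL2 is also known. The share present was 62.5%, near the 57.6% of all protein-coding genes.

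The epithelial label of the cells was checked against 5 markers. KRT18, EPCAM and KRT8 were present, at 134.6, 30.8 and 8.50 TPM, and CDH1, which encodes E-cadherin, and KRT19 had no read. These 2 of the 5 markers were therefore not found among the transcripts of these samples. Of 20 markers of blood, fibroblasts, muscle, endothelium and glia, 16 had 3 reads or fewer in every sample. Of these 11 had no read, PTPRC, COL3A1, DCN and CDH5 among them. The fibroblast markers COL1A1 and PDGFRA had up to 4 and up to 8 reads in a sample without passing the filter. CD68 and ACTA2 were the 2 that passed the filter, with 2.11 and 1.12 TPM. The summed level of the 20 markers was 2.04 to 3.04 CPM (counts scaled to library size) with control siRNA and 2.46 to 3.10 CPM with A20 siRNA.

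**Figure D3:**
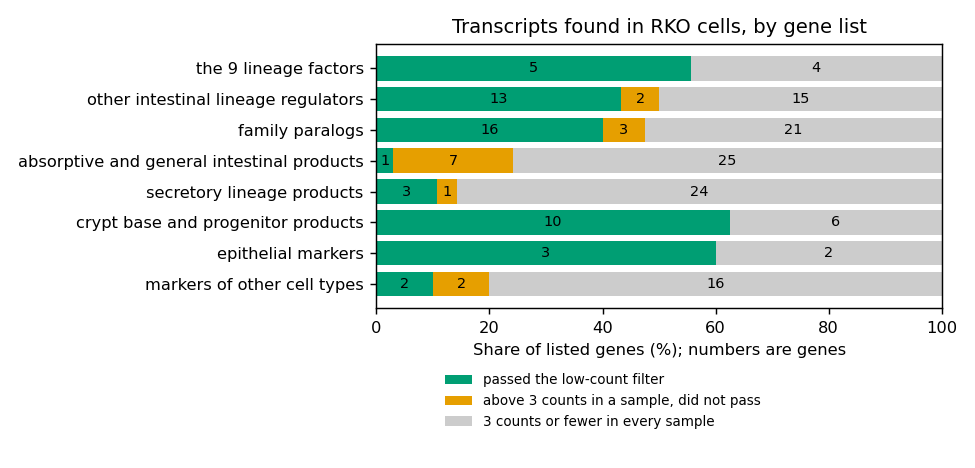
Share of the genes in each list (%, numbers are genes) that passed the low-count filter (green), had more than 3 counts in some sample without passing (orange), or had 3 counts or fewer in every sample (grey), over the 8 samples. The 9 lineage factors split 5 to 4, and 25 of the 33 absorptive and 24 of the 28 secretory products are grey.

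The comparison of A20 siRNA with control siRNA asks whether knockdown of A20 altered these factors in wnt3a-treated cells. The knockdown was checked first. TNFAIP3 (chromosome 6, 137867214 to 137883314) had 4.92 to 5.83 CPM with control siRNA and 3.01 to 3.47 CPM with A20 siRNA, so the groups did not overlap. It was reduced to 61.0% of control (95% interval 53.2% to 70.1%), with an adjusted p-value of 0.00258 in edgeR. In these bulk samples fewer expressing cells and less RNA per cell cannot be told apart, here or for any gene that follows. Total counts per sample ranged from 21226451 to 34194273, at which 3 counts correspond to 0.0875 to 0.141 CPM, and such limits cover counting error only. Of the 13412 genes tested, 1.25% passed the adjusted threshold of 0.05, 0.634% higher and 0.611% lower with A20 siRNA.

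Of the 5 present factors 0 passed that threshold. Without adjustment 1 had a p-value under 0.05 in edgeR, KLF5, which was lower with A20 siRNA. The same holds for 16.2% of all tested genes, and for 7.37% in the lower direction. DESeq2 and limma-voom also gave 0 factors at the adjusted threshold and KLF5 alone without adjustment. DESeq2 gave an adjusted p-value to CDX2 only, and called 2.16% of the genes for which it gave one. The median log2 fold change of the 5 was 0.0020, and that of all tested genes was 0.0027.

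CDX2 did not separate the groups. Its values were 16.7, 16.4, 18.1 and 16.5 CPM in control samples 1 to 4 and 17.9, 16.9, 17.7 and 15.6 CPM in A20 siRNA samples 1 to 4, with means of 17.0 ± 0.798 and 17.0 ± 1.02 (SD, n = 4 each). The highest sample was a control and the lowest an A20 siRNA sample. The log2 fold change was 0.01 (standard error 0.05, 95% interval -0.10 to 0.12, adjusted p = 0.948, edgeR). Changes of CDX2 beyond 0.932 to 1.09 times the control level lie outside this interval.

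GATA6 likewise had 6.65, 6.38, 7.83 and 6.26 CPM with control siRNA and 6.97, 7.88, 5.94 and 6.16 CPM with A20 siRNA. The groups overlapped, and the log2 fold change was 0.0020 (standard error 0.09, 95% interval -0.20 to 0.20, adjusted p = 0.996 from edgeR). On a linear scale the interval runs from 0.873 to 1.149 times the control level.

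KLF5 was the factor whose groups were furthest apart. Control samples 1 to 4 had 3.89, 3.52, 3.86 and 4.44 CPM, and A20 siRNA samples 1 to 4 had 2.83, 3.22, 3.28 and 3.24 CPM. Every A20 siRNA sample lay below every control sample, and the means were 3.93 ± 0.379 and 3.14 ± 0.211 (SD, n = 4 each). Groups that did not overlap, in either direction, were found for 7.61% of all tested genes, and with A20 siRNA lower for 3.9%. KLF5 stood at 79.6% of control (95% interval 68.2% to 92.9%), which is -0.33 on the log2 scale with a standard error of 0.11, and an exact two-sided permutation test gave p = 0.0286, the smallest that 4 samples against 4 allow. After adjustment over all genes in edgeR it did not pass (adjusted p = 0.124), and its p-value ranked at 643 of 13412. KLF5 rested on 69 to 117 reads per sample.

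KLF4 had 2.86, 3.01, 2.78 and 2.75 CPM with control siRNA and 2.51, 2.04, 2.83 and 2.45 CPM with A20 siRNA. A20 siRNA sample 3 fell among the controls, and the other 3 were below them. The log2 fold change was -0.22 (standard error 0.12, 95% interval -0.47 to 0.03, adjusted p = 0.386 from edgeR). SOX9 ranged over 1.26, 0.861, 1.04 and 1.23 CPM in control samples 1 to 4 and 1.08, 1.04, 1.31 and 1.60 CPM in A20 siRNA samples 1 to 4, and the groups overlapped. At 22 to 38 reads per sample the log2 fold change of 0.15 had the widest interval of the 5, from -0.25 to 0.55 (adjusted p = 0.746 from edgeR), so smaller changes of SOX9 were not detectable at this depth. CDX1, HNF4A and ATOH1, which had no read, were not tested. ASCL2 did not pass the low-count filter, and with all genes kept its adjusted p-value in edgeR was 0.892. The reads of these 4 factors with A20 siRNA, as with control siRNA, stayed at 2 or fewer per sample.

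**Figure D4:**
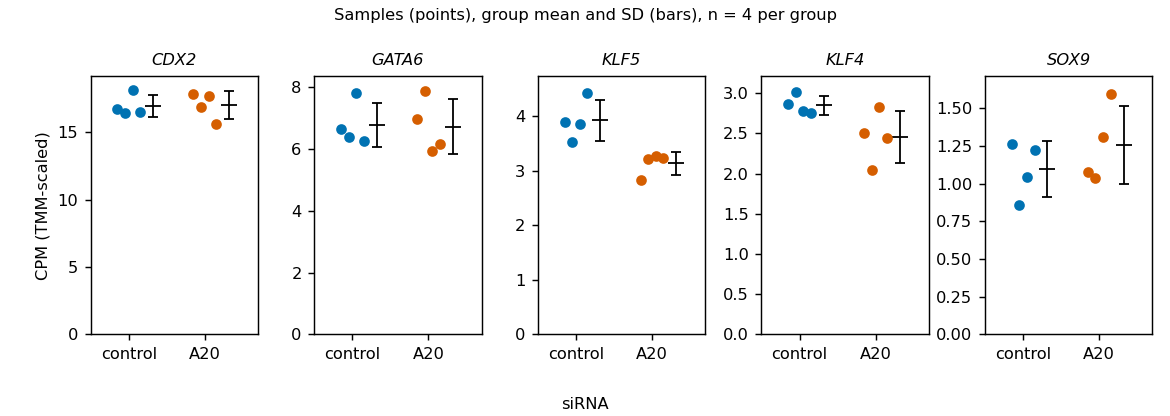
Levels of the 5 present lineage factors (CPM, counts scaled to TMM library size, each axis from 0) in the 4 control siRNA samples (blue) and the 4 A20 siRNA samples (orange), in the order of sample number, with the mean and SD of each group in black. The groups overlap for CDX2, GATA6, KLF4 and SOX9, and for KLF5 the A20 siRNA samples lie between 2.83 and 3.28 CPM, below the controls at 3.52 to 4.44 CPM.

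Of the 13 other lineage regulators tested, 0 passed the adjusted threshold in edgeR, 1 (HES4) had an unadjusted p-value under 0.05, and their median log2 fold change was 0.03. Over all tested genes 16.2% had such an unadjusted p-value, and groups did not overlap for 7.61%. GATA4 and HNF4G, the relatives of GATA6 and HNF4A, had log2 fold changes of 0.07 (95% interval -0.03 to 0.16) and 0.02 (95% interval -0.08 to 0.13). HES4, a HES family repressor, had 8.46 to 8.65 CPM with control siRNA and 9.03 to 9.91 CPM with A20 siRNA, so its groups did not overlap, and the log2 fold change was 0.13 with an adjusted p-value of 0.292 from edgeR. HES1 had a log2 fold change of 0.14 (adjusted p = 0.615 from edgeR) and GFI1 of 0.14 (adjusted p = 0.405).

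**Figure D5:**
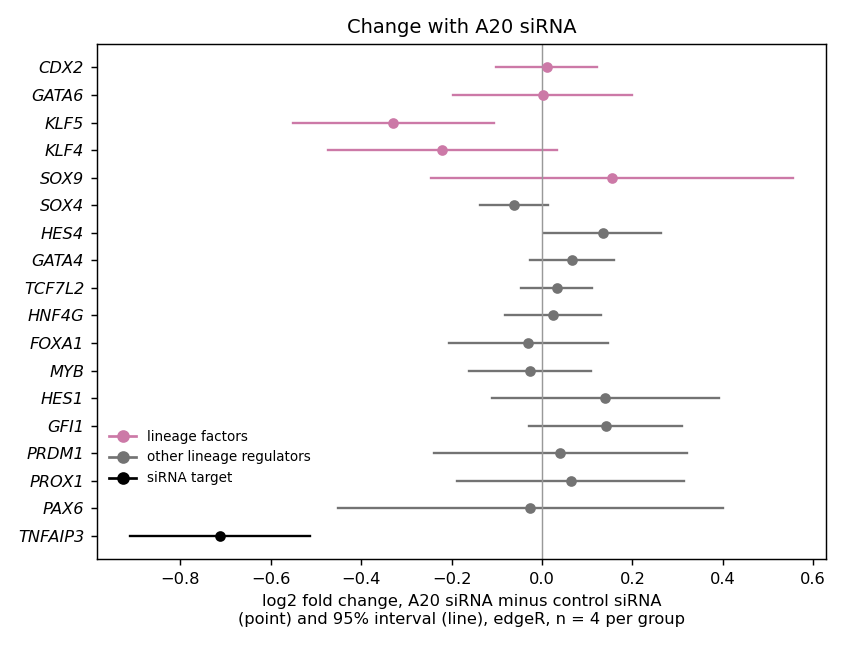
Log2 fold change of A20 siRNA minus control siRNA (points) with its 95% interval (lines) from edgeR, n = 4 per group, for the 5 present lineage factors (pink), 12 of the 13 other lineage regulators tested (grey) and the siRNA target TNFAIP3 (black). The intervals of KLF5, HES4 and TNFAIP3 do not include 0, and of these only TNFAIP3 passed the adjusted threshold.

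Of the 16 relatives of the factors that were tested, 0 passed the adjusted threshold in edgeR and 1 (KLF2) had an unadjusted p-value under 0.05, and 7 had a positive and 9 a negative log2 fold change. Such an unadjusted p-value was found for 16.2% of all tested genes. Groups did not overlap for 3 of the 16, KLF2, KLF9 and SOX13, and for 7.61% of all tested genes. KLF9 and SOX13 were higher with A20 siRNA, with log2 fold changes of 0.28 and 0.11. KLF2, a relative of KLF4 best known from endothelium and lymphocytes, came nearest, with 22.3, 21.7, 21.4 and 22.6 CPM in control samples 1 to 4 and 20.2, 17.9, 17.2 and 20.9 CPM in A20 siRNA samples 1 to 4. Its groups did not overlap, the log2 fold change was -0.21 (standard error 0.05, 95% interval -0.32 to -0.10), and the adjusted p-value was 0.0595. Without control sample 1 or without A20 siRNA sample 1 it passed, with adjusted p-values of 0.0450 and 0.0348 from edgeR, and over all 17 alternatives the adjusted p-value ran from 0.00327 to 0.192, under 0.05 in 5 of them.

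Among intestinal products, CA2, DLL1, DLL4 and TPH1 were tested and none passed the adjusted threshold. DLL1 had a log2 fold change of 0.24 (95% interval 0.01 to 0.47, adjusted p = 0.281 from edgeR) and DLL4 of -0.37 (95% interval -0.70 to -0.05, adjusted p = 0.239). Of the 10 crypt genes tested none passed, and MKI67, the proliferation marker, came nearest. It had 851.1, 677.3, 719.5 and 726.9 CPM with control siRNA and 873.9, 821.6, 817.9 and 841.7 CPM with A20 siRNA, so control sample 1 lay within the A20 siRNA samples. The log2 fold change was 0.17 with an adjusted p-value of 0.0595 from edgeR, and without control sample 1 it was 0.24 with an adjusted p-value of 3.01e-05. Over all 17 alternatives the adjusted p-value ran from 9.55e-11 to 0.269, under 0.05 in 5 of them. The 3 epithelial markers tested had log2 fold changes from -0.10 to -0.04, and the 2 other cell type markers -0.24 for CD68 and 0.28 for ACTA2, none past the threshold.

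The genes whose levels followed those of a factor most closely over the 8 samples were named for CDX2 and GATA6, which had at least 100 reads in every sample. For CDX2 they were the pseudogene ENSG00000223804 and DEPDC1, with Pearson's r of 0.950 and 0.945 on log2 CPM, and 9 genes reached 0.9. For GATA6 they were the pseudogene RPL23AP7 and ENSG00000272370.1, with 0.937 and 0.935 at 9 to 49 reads per sample, and 3 genes reached 0.9. Counts of both pseudogenes are uncertain, since reads that map equally well to a near-identical copy are not in unique counts. These values describe 8 samples that share 1 cell line and were picked as the highest among all tested genes.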

How the data were processed

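RNAseq from 8 samples of RKO cells (4 control siRNA, 4 A20 siRNA) was used, with groups and numbers from the sample labels. Poly(A) RNA was sequenced as single reads. The authors deposited raw counts, that is, reads mapped uniquely to each gene with STAR on GRCh38.p7 and a GENCODE annotation after Trimmomatic. The GENCODE release and strand setting are not given in the sources used here, and without strand, reads of overlapping genes on opposite strands cannot be told apart.

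Differences were tested in edgeR 4.0.16 (R 4.3.3) by its quasi-likelihood test with TMM scaling and no covariates, on the 13412 genes kept by filterByExpr with a minimum count of 10. Adjustment was by Benjamini and Hochberg, at 0.05. Each standard error is the absolute log2 fold change divided by the square root of F, and intervals cover 95%. Symbols, coordinates and exonic lengths (all annotated exons merged) came from GENCODE 44, which matched 56948 of 57992 genes. TPM was computed from these lengths, so a gene with many isoforms is understated. No samples of the same group agree within sampling noise (chi-square of 1.31 to 3.69 per degree of freedom). The lineage factors and gene lists were chosen with earlier results of these data known. Named genes are the 9 factors, TNFAIP3, the highest listed genes per exonic length, the listed genes past the threshold (none), overlapping genes, and the 2 genes most alike for factors with at least 100 counts in every sample; the other genes named were chosen after their values were seen. Alternatives were DESeq2 1.42.0, limma-voom (limma 3.58.1), RLE in place of TMM, all genes with a read, only genes with 10 counts or more throughout, the replicate number as a block, a correction for exonic length (loess trend per sample, span 0.5), both together, and each sample left out. Leaving out control sample 1 and A20 siRNA sample 2 together was added after seeing the data. The values of some listed genes are not reported here.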

Additional observations from a re-analysis of the deposited data

Results flagged for a closer look

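In 20 groups of 4 samples, 3 held a sample far from the others by Dixon's criterion, where chance alone flags about 1 group in 20. A group without any read, as for CDX1, HNF4A and ATOH1, has no range and could not be flagged. CDX2 in control sample 3 lay above the other controls (18.1 against 16.4 to 16.7 CPM), with a gap of 0.8294 of the group's range. KLF5 in A20 siRNA sample 1 lay below its group (2.83 against 3.22 to 3.28 CPM), with a gap of 0.880, and without that sample the log2 fold change of KLF5 was -0.27 (adjusted p = 0.275 from edgeR). TNFAIP3 in A20 siRNA sample 2 lay below its group (3.01 against 3.40 to 3.47 CPM), with a gap of 0.847.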

How the results depend on the processing

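The 5 present factors were the same number under 3 other definitions: at least 10 counts in every sample, more than 3 counts in every sample, and a mean of at least 1 TPM. No factor passed the adjusted threshold under any of the 17 alternatives. KLF5 kept a negative log2 fold change throughout, from -0.38 to -0.27, with adjusted p-values from 0.0877 to 0.338 in the 16 that gave one. KLF4 (-0.29 to -0.14) and SOX9 (0.04 to 0.31) also kept their direction. The values nearest to 0 changed sign. GATA6 was -0.00021 with RLE normalization, -0.0012 with all genes kept, -0.0017 under the replicate block and -0.092 without control sample 1 and A20 siRNA sample 2, and -0.082 to 0.075 with 1 sample left out. CDX2 was -0.020 to 0.042 with 1 sample left out. TNFAIP3 passed in all 16 alternatives that gave it an adjusted p-value. DESeq2 gave none to TNFAIP3, KLF4, KLF5, SOX9 or GATA6.

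The number of genes called higher and lower, 85 and 82, became 314 and 310 with all genes kept, 262 and 212 with the replicate block, 218 and 258 with the replicate block and length correction, and 614 and 483 without control sample 1 and A20 siRNA sample 2. With the length correction alone 150 were lower. With 1 sample left out, 6 to 567 were higher and 6 to 430 lower, the lowest without A20 siRNA sample 3 and the highest without control sample 1. Among the 172 genes of the other lists, 1 was called higher (MKI67) and 1 lower (KLF2) with all genes kept, with the replicate block, and with the replicate block and length correction (adjusted p-values in edgeR under the block of 0.00108 and 0.0158). MKI67 alone was called without control sample 1 and A20 siRNA sample 2, so 1 was higher there. With 1 sample left out, 0 to 1 were higher and 0 to 1 lower. The cause was not tested. The sources used here do not say whether samples of the same number belong together. Their deviations from the group mean correlated by -0.0098 to 0.084 over genes, and 4 of 8 samples correlated best with their own number. The precision of SOX9 and of factors at 0 is limited by depth.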
